A study of Caenorhabditis elegans with 10 samples.

Results

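A set of 10 Caenorhabditis elegans genes that build the mature oocyte and the eggshell was followed across 5 strains: oma-1, oma-2, egg-1, egg-2, cbd-1, chs-1, cpg-1, cpg-2, perm-2 and perm-4. They were taken by name, as a functional group, from 46907 genes in the count tables. The libraries were made from total RNA of whole animals with the KAPA RNA HyperPrep kit, 2 libraries per strain and 10 in all. Compared were the wild type (WT), the mutant unc-104(R9Q), and 3 strains in which R9Q was combined with T102I in unc-104, with G265R in unc-104, or with a mutation in unc-16. The last 3 are called T102I, G265R and unc-16 here, and each of them carries R9Q too. UNC-104 is the kinesin motor that moves synaptic vesicle precursors along axons, UNC-16 is a scaffold protein that binds kinesin, and the second changes are genetic suppressors of R9Q. The labels give treatment as none, give no age or stage, do not name the unc-16 allele, and do not say whether the replicates came from separate cultures. The p-values therefore measure the spread between these libraries, which may be technical.

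In a hermaphrodite, the germ line first makes sperm and then switches to oocytes, which grow while transcripts are loaded into them and are ovulated after meiotic maturation. OMA-1 and OMA-2 are redundant zinc-finger RNA-binding proteins needed for that maturation, and EGG-1 and EGG-2 are oocyte surface proteins with LDL-receptor repeats needed for fertilization. The eggshell is laid down in layers: CBD-1 and the PERM proteins belong to the outer vitelline layer, CHS-1 makes the chitin layer, and CPG-1 and CPG-2 are chondroitin proteoglycans of the layer inside it. Transcripts of these genes are abundant in the germ line of adults that form oocytes.

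The counts assigned to a transcript came to 6239272 to 7160785 per library. The authors counted per transcript, so a read lying in more than 1 transcript was not counted, and 57.7 to 61.8% of aligned reads were lost in this way. A set of 3 libraries stood apart. Replicate 1 of T102I and replicate 2 of both G265R and unc-16 had 0.0194 to 0.0238% of their counts on the mitochondrial genome, against 1.58 to 5.51% in the other 7. Levels are given as CPM, counts scaled to library size with TMM factors, and a floor of 3 counts, about the one-sided 95% limit of a count of 0, equals 0.387 to 0.503 CPM. Intervals on levels and count ratios are exact two-sided 95% intervals, whose upper end at a count of 0 was 0.476 to 0.619 CPM, and all of these cover counting error only. In whole animals, fewer oocytes and less RNA per oocyte cannot be told apart.

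Of the 10 genes, 8 had a count in at least 1 library, and 5 had one in every library: oma-1, egg-1, cbd-1, cpg-1 and cpg-2. These 5 and perm-4 passed the low-count filter and entered the test, while perm-2, chs-1, egg-2 and oma-2 did not. The genes egg-2 (WBGene00019811; chromosome III, 7058527 to 7060583, minus strand) and oma-2 (WBGene00003865; chromosome V, 8029439 to 8031214, plus strand) had 0 counts in all 10 libraries. Each of them was listed with 2 transcripts in the deposited tables but with 1 in the annotation release used here, so the bases that could be counted are not known. The chitin synthase gene chs-1 (WBGene00000496; chromosome I, 7554855 to 7559916, plus strand) had 6 counts, spread over 4 libraries. Only 116 of its 4293 exon bases (2.70%) belong to a single transcript. No level is given for these 3 genes. Whether the 0 counts of egg-2 and oma-2 come from the counting or from the animals cannot be told apart here. The 7 genes described from here on are the others. Coordinates are those of WBcel235 (ce11).

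Per kilobase of countable exon, the 7 genes fell from the middle to the lower part of the range of 12814 protein-coding genes with 1 transcript. Those 12814 genes were scaled to all their exon bases, countable or not, so the percentiles are approximate. The median level over the 10 libraries was 8.47 CPM per kb for cpg-1, 3.25 for cpg-2, 2.83 for egg-1, 2.49 for cbd-1, 1.77 for oma-1, 0.857 for perm-2 and 0.353 for perm-4. The highest of these medians stood at percentile 56.4 and the lowest at percentile 26.8. Every neighbouring pair in this order overlapped in the range over libraries, so the order of neighbours is not larger than their spread. The place of a gene in the range moved between libraries: cpg-2 stood between percentiles 33.7 and 68.7, and perm-2 between 0 and 67.4.

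The oocyte maturation gene oma-1 (WBGene00003864; chromosome IV, 8888976 to 8890999, plus strand) had the lowest mean over the 10 libraries, 3.65 CPM, of the 5 genes counted in every library. Its level was 3.80 and 2.02 CPM in WT, 3.52 and 2.84 in R9Q, 2.52 and 1.71 in T102I, 2.24 and 5.71 in G265R, and 7.22 and 4.95 in unc-16 (replicates 1 and 2). The unc-16 libraries lay above both R9Q and both WT libraries, the T102I libraries lay below both R9Q libraries, and the G265R libraries lay on either side of R9Q. The means were 3.18 ± 0.485 CPM in R9Q and 6.09 ± 1.60 in unc-16 (SD, n = 2 each).

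The fertilization gene egg-1 (WBGene00015083; chromosome III, 5728180 to 5730159, plus strand) was counted over 1753 of its 1795 exon bases, since 42 are shared with the neighbouring gene B0244.9. It stood at 4.71 and 5.44 CPM in WT, 3.67 and 3.35 in R9Q, 5.51 and 2.56 in T102I, 1.92 and 8.22 in G265R, and 11.1 and 5.22 in unc-16. Both R9Q libraries were below both WT libraries, and both unc-16 libraries were above R9Q. The G265R pair held the lowest and the second highest value of the series, and replicate 2 was 4.28 times replicate 1 (95% interval 2.24 to 8.84).

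The vitelline-layer gene cbd-1 (WBGene00010351; chromosome IV, 11372991 to 11377627, plus strand) encodes a chitin-binding protein and had 4221 exon bases, all in 1 transcript. WT gave 10.03 and 10.3 CPM, R9Q 14.7 and 12.1, T102I 7.40 and 7.53, G265R 10.7 and 30.04, and unc-16 27.5 and 10.2. R9Q lay above WT in both libraries, and T102I lay below every other library of the series. In each of the 2 remaining strains a library near 10 CPM was paired with one near 30: G265R replicate 2 was 2.80 times replicate 1 (2.10 to 3.77), and unc-16 replicate 1 was 2.70 times replicate 2 (2.05 to 3.58).

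Of the chondroitin proteoglycan genes, cpg-1 (WBGene00000465; chromosome III, 4489359 to 4491392, plus strand) was the most even. Its level was 10.9 and 13.2 CPM in WT, 11.4 and 13.1 in R9Q, 9.44 and 12.4 in T102I, 8.49 and 17.5 in G265R, and 19.8 and 7.36 in unc-16. WT, R9Q and T102I overlapped, and the highest and the lowest libraries of all were the pair of unc-16. Its strain means ran from 10.9 ± 2.07 CPM in T102I to 13.6 ± 8.80 in unc-16 (SD, n = 2 each), less apart than the libraries within unc-16. Of its 1889 exon bases 1406 were countable, and its second transcript had none of its own and no counts.

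The other proteoglycan gene, cpg-2 (WBGene00015102; chromosome III, 7102092 to 7103990, minus strand), varied most of the genes counted in every library, 23.3-fold from its lowest to its highest. It stood at 7.30 and 6.68 CPM in WT, 2.495 and 2.45 in R9Q, 6.14 and 4.83 in T102I, 1.60 and 37.3 in G265R, and 5.07 and 8.44 in unc-16. Both R9Q libraries lay below both libraries of WT, T102I and unc-16. The summed counts gave WT 2.83 times R9Q (1.90 to 4.29), from 91 counts against 36. G265R supplied both extremes: replicate 1 was the lowest library and replicate 2, with 222 counts (32.5 to 42.5 CPM), was 4.42 times the next highest.

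**Figure D1:**
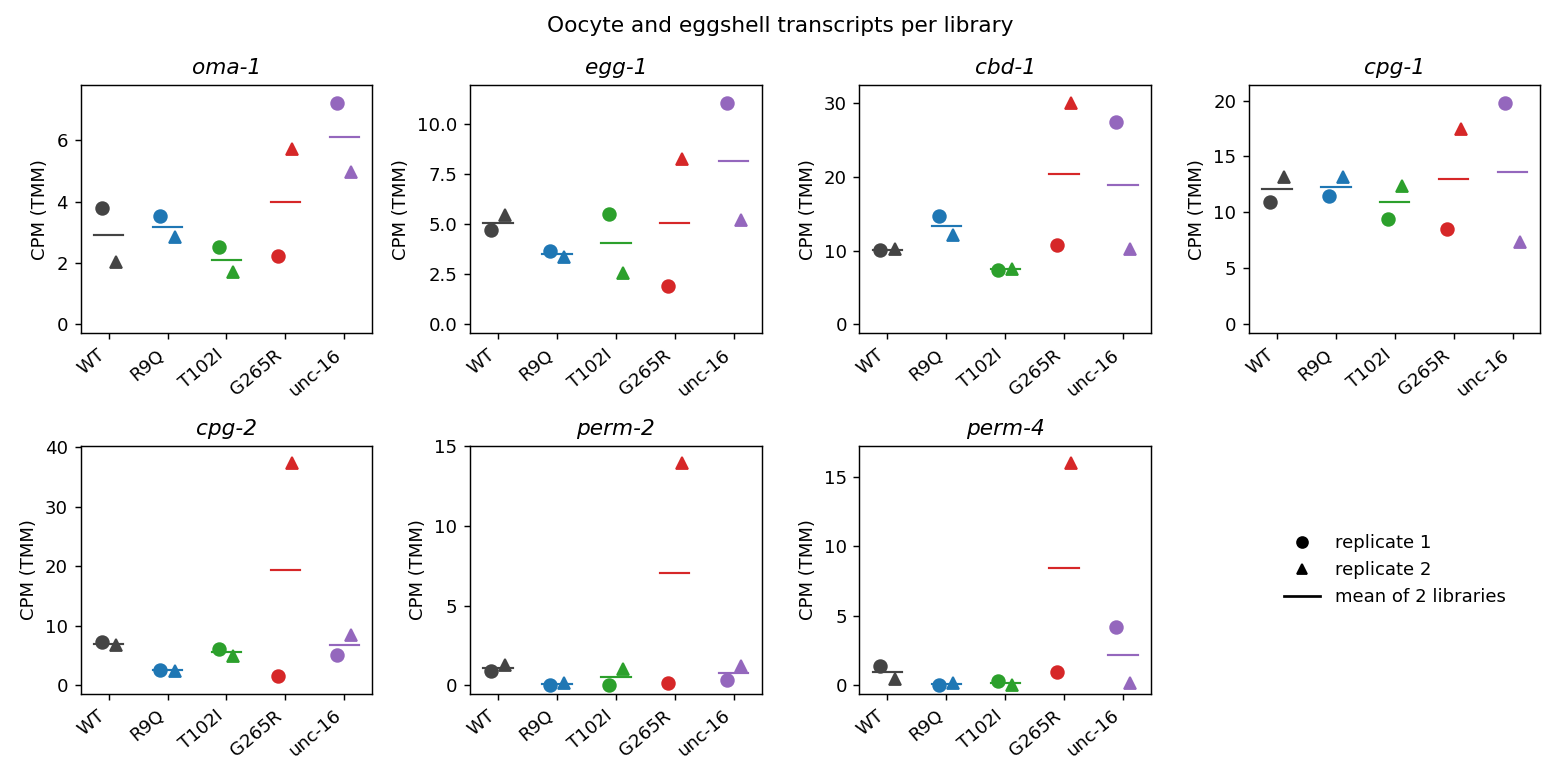
CPM (TMM-scaled, linear axis from about 0, own scale per gene) of the 7 genes with a usable level; circles are replicate 1, triangles replicate 2, and bars the mean of the 2 libraries of a strain. WT and R9Q replicates sit close together for most genes, whereas G265R replicate 2 reaches 37.3 CPM for cpg-2 and 15.9 CPM for perm-4 while replicate 1 stays at 1.60 and 0.961.

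The permeability genes perm-2 and perm-4 encode secreted proteins of the vitelline layer that are needed for the permeability barrier of the embryo. They are head-to-head neighbours on chromosome IV, with perm-2 (WBGene00016636) at 1126790 to 1128865 on the plus strand and perm-4 (WBGene00016638) at 1121494 to 1125107 on the minus strand. Their starts are 1683 bases apart, and no annotated gene lies between them.

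The gene perm-2 was at 0.912 and 1.24 CPM in WT, 0 and 0.129 in R9Q, 0 and 0.995 in T102I, 0.160 and 13.9 in G265R, and 0.307 and 1.21 in unc-16. The gene perm-4 was at 1.37 and 0.466 CPM in WT, 0 and 0.129 in R9Q, 0.315 and 0 in T102I, 0.961 and 15.9 in G265R, and 4.15 and 0.134 in unc-16. Both genes were highest in G265R replicate 2, with 83 counts (11.1 to 17.3 CPM) for perm-2 and 95 counts (12.9 to 19.5 CPM) for perm-4. In R9Q each had 1 count in the 2 libraries together, the fewest of any strain. T102I, with 7 counts of perm-2 and 2 of perm-4, is not set apart from R9Q. Its ratios to R9Q were 7.62 (0.979 to 343) and 2.18 (0.113 to 128), and both intervals include 1.

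Against the single count in R9Q, WT had 14 counts of perm-2, a ratio of 15.7 (2.38 to 663), and 12 of perm-4, a ratio of 13.4 (1.99 to 574). Both ratios lie above 1 beyond counting error, and their upper bounds show how little a single count fixes the size. In unc-16, replicate 1 was 30.96 times replicate 2 for perm-4 (5.10 to 1268), whereas for perm-2 the ratio was 0.255 (0.0268 to 1.23), an interval that includes 1. In G265R replicate 2 was 87.0 times replicate 1 for perm-2 (15.2 to 3477) and 16.6 times for perm-4 (7.35 to 46.4).

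Across the group, 2 libraries held every maximum. G265R replicate 2 was the highest library for cbd-1, cpg-2, perm-2 and perm-4, and unc-16 replicate 1 for oma-1, egg-1 and cpg-1. The gene perm-4 passed the count filter through its 95 and 27 counts in these same libraries, so counts of maxima and of replicate differences are given over the 5 genes counted in every library. Of these, 2 and 3 had their maximum there, where 12.7% and 18.3% of the 12267 tested genes did. The levels of cpg-2, perm-2 and perm-4 were more than 2-fold higher in G265R replicate 2 than in any other library. Of all tested genes 34, or 0.277%, met this. Of the 3, perm-2 was not tested and perm-4 was tested through that library, so the share bears on cpg-2 alone. The G265R replicates differed by more than 2-fold for 5 of the 5 genes, where 38.5% of all tested genes did, and the unc-16 replicates for 3 of 5, where 41.1% did. The count was 1 of 5 in T102I, where 23.9% of genes did, and 0 of 5 in WT and in R9Q, where 8.42% and 7.19% did.

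The comparison of R9Q with WT asks what the kinesin mutation changes, and none of the 6 tested members passed an adjusted p of 0.05 (edgeR's quasi-likelihood test, Benjamini-Hochberg over 12267 genes; background 0.31%). None had an unadjusted p under 0.05 either (background 7.67%), and DESeq2 called none (background 2.03%). Both R9Q libraries were below both WT libraries for egg-1, cpg-2 and perm-4 (background 32.6%) and above for cbd-1 (background 31.8%). The 6 members split evenly around 0, 3 above and 3 below. Their median log2 fold change was -0.25 against 0.00 for all tested genes. These counts and the median include perm-4, which entered the test through libraries of other strains. The log2 fold changes of the other 5 ran from -1.49 for cpg-2 to 0.40 for cbd-1, with cpg-1 at 0.03.

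Of these genes cpg-2 had the clearest separation of its libraries, 2.47 ± 0.0324 CPM in R9Q against 6.99 ± 0.437 in WT (SD, n = 2 each). Its log2 fold change was -1.49 with an SE of 1.10 (95% interval -4.03 to 1.05; edgeR adjusted p = 0.931). In a fit of the WT and R9Q libraries alone the value was -1.48 with an edgeR adjusted p of 0.000545, where 37.7% of genes were called, and over 20 alternatives its adjusted p ran from 0.000272 to 1. Without the 3 libraries of low mitochondrial share edgeR called cpg-2 and perm-4 here (background 32.5%). For cpg-1 the log2 difference was 0.03 with an interval of -1.20 to 1.25. That interval spans more than a 2-fold change either way, so equal levels are not shown.

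The comparisons of each suppressed strain with R9Q ask whether the second mutation moves these transcripts. T102I had no member called by edgeR (background 0.562%), by DESeq2 (background 3.83%), or at an unadjusted p under 0.05 (background 11.1%). The 2 members that stood out by value went opposite ways. The level of cbd-1 was 7.47 ± 0.0966 CPM in T102I against 13.4 ± 1.81 in R9Q (SD, n = 2 each), a log2 difference of -0.84 with an SE of 0.59 (edgeR adjusted p = 0.709; 0.00679 to 1 over 20 alternatives). The lowest value came without the 3 libraries of low mitochondrial share, where 36% of genes were called. The level of cpg-2 was 5.49 ± 0.923 CPM against 2.47 ± 0.0324, a log2 difference of 1.14 with an interval of -1.39 to 3.68 (edgeR adjusted p = 0.809). Both T102I libraries lay below R9Q for oma-1 and cbd-1 (background 26.9%) and above it for cpg-2 (background 27.9%).

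G265R against R9Q called no member with edgeR, where no gene at all was called (background 0%), and DESeq2, which called 1.87% of genes, called none, with perm-4 given no adjusted p. At an unadjusted p under 0.05 edgeR had 2 members, cpg-2 and perm-4, where 8.71% of genes had it. Both G265R libraries lay above R9Q for perm-4 (background 21.2%), and for no tested member did both lie below (background 22.2%). Since perm-4 entered the test through G265R replicate 2, its place in these counts is a description. For cpg-2 the log2 fold change was 2.96 with an SE of 1.13 (edgeR unadjusted p = 0.0312, adjusted p = 0.512), from 19.4 ± 25.2 CPM against 2.47 ± 0.0324 (SD, n = 2 each). Without G265R replicate 2 the cpg-2 value was -0.63 (edgeR adjusted p = 0.827), and those of oma-1, egg-1, cbd-1 and cpg-1 also turned below 0. For perm-4 the summed counts were 101 against 1, and the edgeR adjusted p was 0.454.

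The filter bore on this comparison. With all genes of at least 1 count in the fit, edgeR called cpg-2 (adjusted p = 0.000392), perm-2 (2.74e-05) and perm-4 (2.37e-06) in G265R against R9Q, where 1.83% of 25123 genes were called. Over the alternatives that gave a value the adjusted p ran up to 1 for cpg-2 and for perm-4. The call of each rests on replicate 2, which holds 222 of 232 counts of cpg-2, 83 of 84 of perm-2 and 95 of 101 of perm-4.

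The unc-16 strain had all 6 tested members above R9Q by fold change, but cbd-1 turned to -0.35 and cpg-1 to -0.70 without unc-16 replicate 1, and cpg-1 to -0.007 with library size alone. In 4 of them, oma-1, egg-1, cpg-2 and perm-4, both libraries were above both R9Q libraries (background 22.8%), and none lay below in both (background 29.7%). None was called by edgeR (background 0.668%) or DESeq2 (background 9.15%), and none had an unadjusted p under 0.05 (background 19.1%). The log2 fold change was 1.21 with an SE of 0.72 for egg-1 (edgeR adjusted p = 0.421) and 0.93 with an SE of 0.58 for oma-1 (0.441). The median over the 6 was 1.07, against -0.04 for all tested genes. Both the count of 4 and this median include perm-4, which entered through unc-16 replicate 1 as well. Its place in that count sets 1 count in unc-16 replicate 2 against 1 in R9Q replicate 2 (0.134 and 0.129 CPM). Both values lie under the floor, so these 2 libraries are not set apart. Without the 3 libraries of low mitochondrial share, which leaves unc-16 replicate 1 alone and assumes that it varies like WT and R9Q, all 6 were called, where 50.5% of genes were. Without the count filter 1 was called, perm-4 (background 5.03%), whose counts in unc-16 were 27 and 1.

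**Figure D2:**
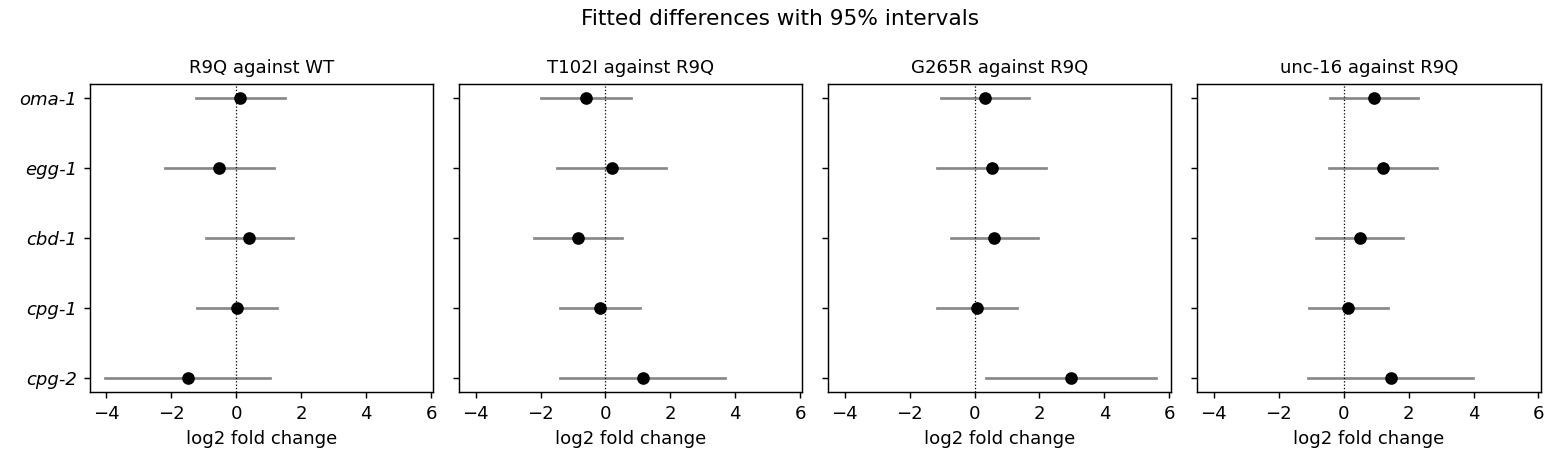
Log2 fold changes (points) with 95% intervals (lines) from the edgeR fit of all 10 libraries for the 5 genes counted in every library, in the 4 main comparisons; the dotted line marks no difference. All intervals cross 0 except that of cpg-2 in G265R against R9Q, from 0.35 to 5.58, whose adjusted p is 0.512.

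Against WT, the T102I strain had all 6 tested members below 0 (median log2 -0.40), where 50% of all tested genes were. Both T102I libraries lay below WT for cbd-1, cpg-2 and perm-4 (background 26.2%) and above it for none (background 28.3%). For perm-4 this rests on 2 and 0 counts in T102I against 9 and 3 in WT, and the gene entered the test through libraries of other strains. G265R had cbd-1 above WT in both libraries (background 23%), and unc-16 had oma-1 (background 24.2%), while neither strain had a tested member below WT in both libraries (backgrounds 25.8% and 31.9%). No member was called by edgeR in the 3 comparisons with WT, where 0.0978%, 0.465% and 4.46% of genes were, none had an unadjusted p under 0.05 (10.6%, 12.6% and 23.2% of genes), and DESeq2 called none (2.98%, 3.72% and 13.5%). The smallest edgeR adjusted p was 0.330, for oma-1 in unc-16, at a log2 fold change of 1.06. These comparisons share the WT libraries.

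Between the suppressed strains, no member was called in any of 3 comparisons by edgeR (backgrounds 0.0978%, 0.783% and 0.0897%) or DESeq2 (1.58%, 4.92% and 2.64%). At an unadjusted p under 0.05 there were 2 members, cbd-1 and perm-4, in T102I against G265R (background 6.57%). Since perm-4 entered the test through G265R replicate 2, its place in this count is a description. The log2 difference of cbd-1 was -1.45 (edgeR unadjusted p = 0.0414, adjusted p = 0.733). It came from 7.40 and 7.53 CPM in T102I against 10.7 and 30.04 in G265R, so most of it lies in G265R replicate 2. At that threshold there was 1 member in unc-16 against T102I, oma-1, at an edgeR adjusted p of 0.301 (background 14.5%). There was none in unc-16 against G265R (background 11.7%).

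Other genes of the germ line, the embryo and the surrounding tissues were read beside the group, 133 genes in 10 lists, of which 59 were tested. In the 4 main comparisons edgeR called none of the 59, and 0, 8, 6 and 15 had an unadjusted p under 0.05 in R9Q against WT and in T102I, G265R and unc-16 against R9Q, beside 7.67, 11.1, 8.71 and 19.1% of all tested genes. DESeq2 called 0, 5, 1 and 8 of them, beside 2.03, 3.83, 1.87 and 9.15% of all. The 5 in T102I were the molting genes ptr-4, noah-2, mlt-8 and mlt-10 and the sperm gene spe-4, and the 1 in G265R was noah-2. The 8 in unc-16 were the same 4 molting genes and qua-1, the germ granule genes meg-1 and meg-2, and the maternal RNA regulator pos-1. All are named here after their values were seen, and meg-1 and meg-2 entered the test through the unc-16 libraries. Nearest in role are 11 further eggshell and fertilization genes, of which 8 were counted and tested. The genes egg-3, cpg-3 and the yolk receptor gene rme-2 were at 0. Their countable bases were not measured, so a 0 here does not show absence. The median log2 fold change of the 8 was -0.10, 0.13, -0.20 and 0.20 in the 4 main comparisons, where that of the 6 tested members was -0.25, 0.01, 0.57 and 1.07. The 6 include perm-4, which entered the test through G265R replicate 2 and unc-16 replicate 1. The summed level of the further genes ran from 88.5 CPM in G265R replicate 1 to 139 in unc-16 replicate 1. The 10 genes followed here ran wider, from 26.4 CPM in G265R replicate 1 to 129 in G265R replicate 2, with 75.1 in unc-16 replicate 1 and 34.2 to 39.3 in the WT and R9Q libraries.

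Most of the further eggshell level was perm-5, which encodes a predicted lipid-binding protein of the permeability barrier, at 52.4 to 93.8 CPM. The next was perm-3, at 3.07 to 17.1 CPM. Its highest value was in G265R replicate 2, with 15.7 CPM in T102I replicate 1. Of the other tested genes of this list, egg-4 (3.02 CPM) and dgtr-1 (2.01 CPM) were lowest in G265R replicate 2, and the rest had neither extreme there. Maternal RNA regulators summed to 958 to 1406 CPM, with ifet-1, a translational repressor, at 451 to 679 and car-1, an RNP granule protein, at 180 to 357. Germ granule genes summed to 47.1 to 157 CPM, most of it the helicase genes glh-1 (32.98 to 118) and glh-2 (9.77 to 27.96).

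Meiotic chromosome genes summed to 40.5 to 73.9 CPM, led by the axis gene htp-3 and the synaptonemal complex gene syp-1. Sperm genes summed to 37.5 to 69.1 CPM, with 28 of 42 counted, and spe-4, needed for sperm formation, was highest in T102I, at 25.5 and 22.5 CPM, against 4.38 to 12.1 in the other libraries. Somatic gonad genes summed to 107 to 150 CPM, led by the sheath genes lim-7 and ceh-18. Early embryo genes reached 2.68 to 9.32 CPM, with 13 of 14 counted, and the endomesoderm gene med-2 and sdz-1 were their highest.

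Markers of adults and of molting also differed in level between libraries of a strain. Yolk protein genes, which adult hermaphrodites express in the intestine, summed to 14.4 CPM in G265R replicate 2 and to 0.777 to 5.22 in the other 9. The highest of them there was vit-5 at 9.57 CPM, from 57 counts, with vit-1 at 3.69. The genes vit-2 and vit-6 were at 0 everywhere. Their countable bases were not measured, so the sum may miss part of the yolk transcripts. Adult cuticle collagens were at 0 in G265R replicate 2 and reached 5.53 CPM in unc-16 replicate 1, with col-62 and col-63 the highest. All 4 collagens and 4 of 6 yolk genes had a count in some library.

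Molting genes summed to 59.2 to 72.4 CPM in WT and R9Q, 558 and 608 in T102I, 42.4 and 515 in G265R, and 162 and 2333 in unc-16, with noah-2 and qua-1, apical matrix and hedgehog-related genes, the highest. Each library of low mitochondrial share had at least 515 CPM of molting genes, but so did T102I replicate 2, which is not one of them. The part of molting genes, yolk genes or mitochondrial share in the eggshell values was not tested.

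**Figure D3:**
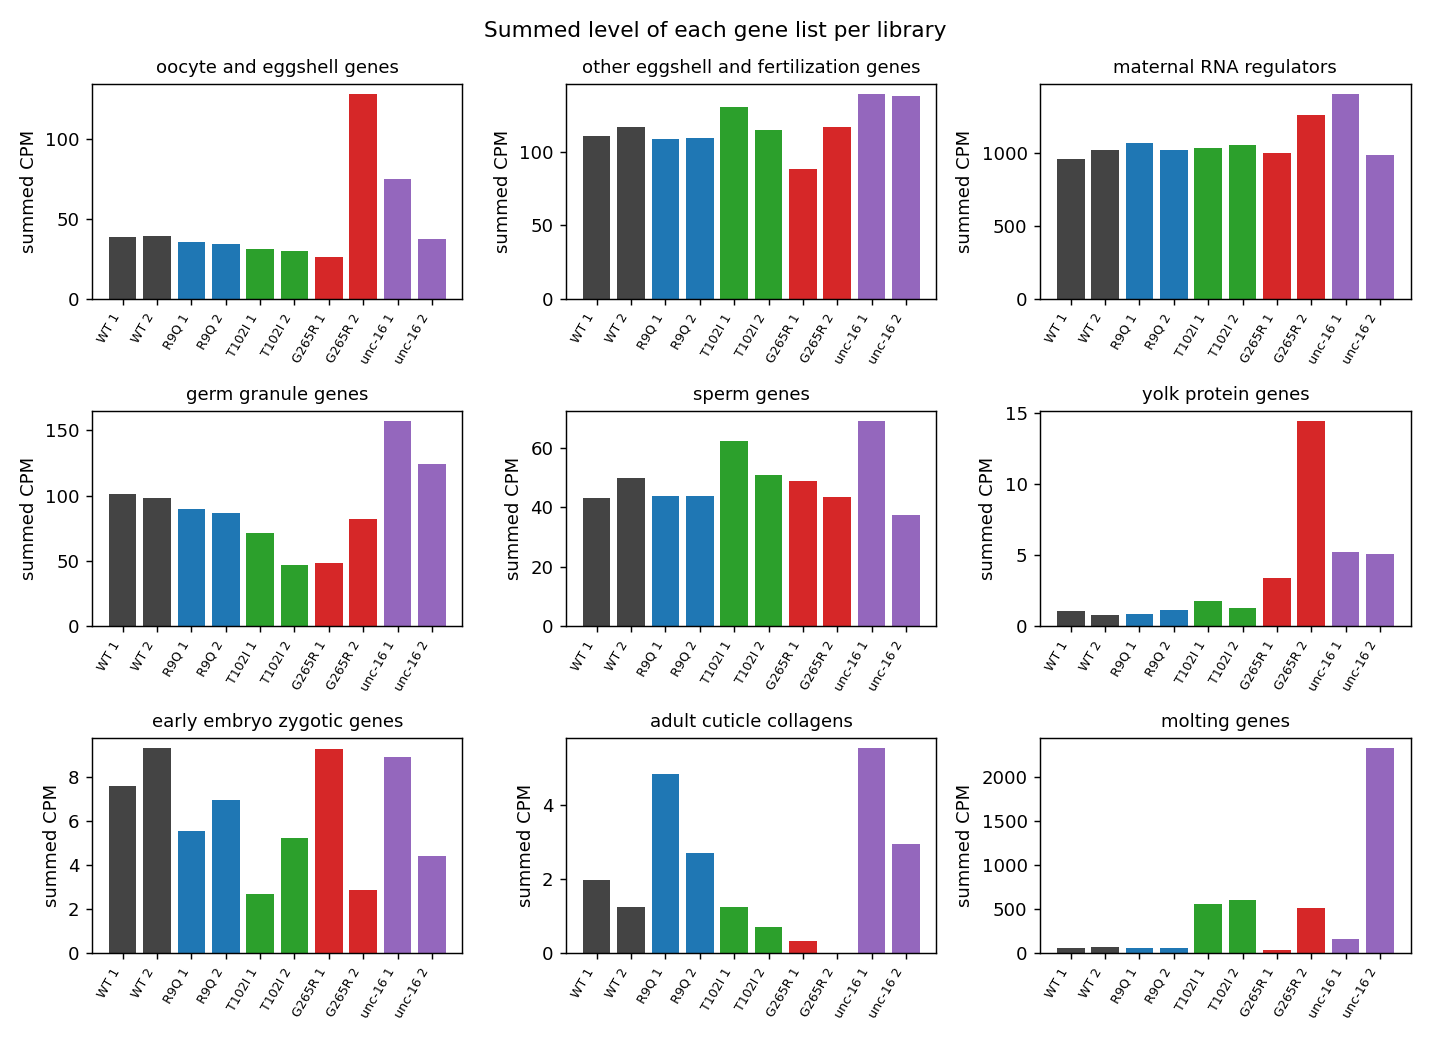
Summed CPM (linear axes from 0, own scale per panel) of the 10 oocyte and eggshell genes and of 8 other lists in each of the 10 libraries, coloured by strain. The oocyte and eggshell genes reach 129 CPM in G265R replicate 2, where yolk genes reach 14.4, whereas further eggshell and sperm genes vary less and molting genes peak at 2333 in unc-16 replicate 2.

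Likeness of profile was measured as the root mean square distance, in log2 CPM centred on each gene's mean over 10 libraries, to the mean profile of the 6 tested members. The 8 nearest named genes outside the group were puf-5 (0.413), mex-6 (0.422), clec-167 (0.430), cey-2 (0.442), casy-1 (0.450), irld-51 (0.453), srgp-1 (0.455) and puf-3 (0.455). Of these, puf-3, puf-5 and mex-6 were in the list of maternal RNA regulators, which holds 12 of the 12267 tested genes. In that list gld-1 (4.32 and 1.68 CPM in G265R replicates 1 and 2) and gld-3 (3.84 and 2.18) fell where its other tested genes rose. Likeness of the list as a whole was not tested, and the lists were chosen with earlier results of these data known. The mean profile itself stood at 1.67 in G265R replicate 2 and 1.02 in unc-16 replicate 1. It includes perm-4, at 4 and 2.13 there, which entered the test through these same libraries. The share of the list among the 8 is therefore a description. The gene puf-3 was also among the 34 genes more than 2-fold higher in G265R replicate 2 than elsewhere. The members themselves lay at 0.385 for cbd-1, 0.405 for egg-1, 0.453 for oma-1, 0.541 for cpg-1, 0.725 for cpg-2 and 1.13 for perm-4. Their own values enter the mean profile, so these distances are a description.

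**Figure D4:**
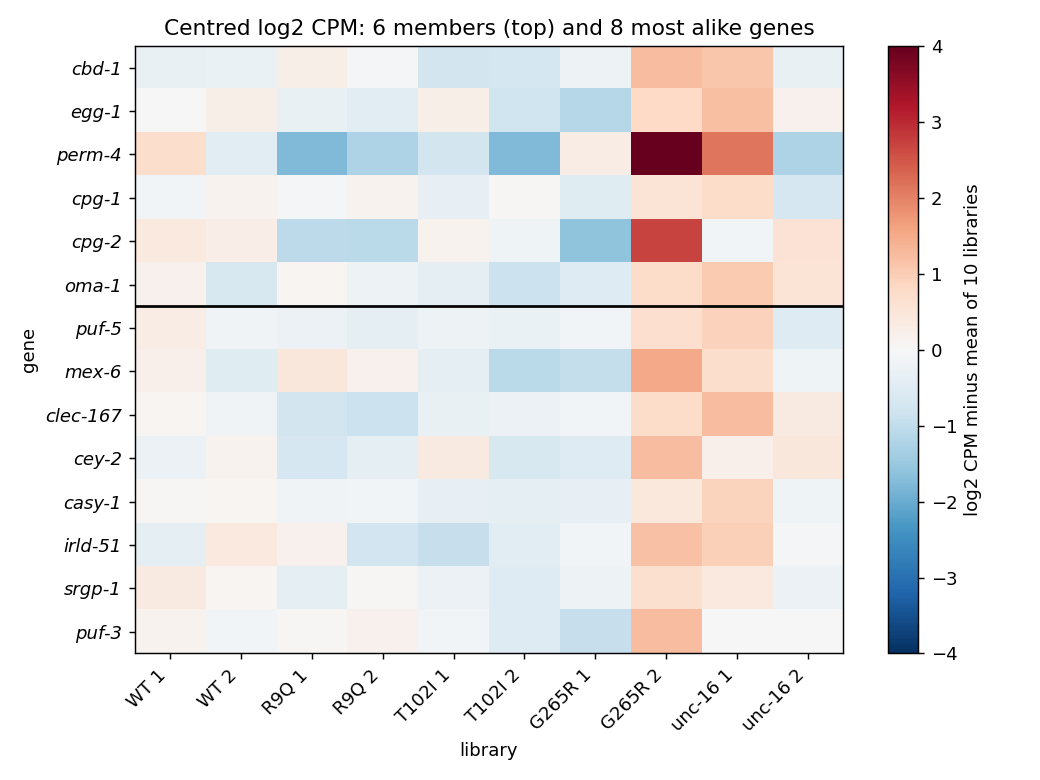
Log2 CPM of each gene minus its mean over the 10 libraries (colour, from -4 to 4), with the 6 tested members above the line and the 8 most alike genes under it. The columns of G265R replicate 2 and unc-16 replicate 1 are high for most of the 14 genes, and perm-4 and cpg-2 reach furthest. The gene perm-4 entered the test through these libraries. The 8 genes were chosen for closeness to the mean profile of the members, so their high columns follow from that choice.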

How the data were processed

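The deposited values were raw counts per transcript. Per the submitters' processing notes the authors used Trim Galore 0.4.4, STAR 2.5.4b, HTSeq 0.9.1 and ce11; the strand setting is not given in the sources used here, nor is the annotation release. The tables each held 61451 transcripts and 5 summary entries, which were left out. Transcript names were matched to Ensembl genes (56781 by identifier, 4581 by sequence name, 89 unmatched with 0.0486% of counts) and counts summed per gene. Reads in overlapping genes or several transcripts were dropped, so such genes are measured in part.

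All 10 libraries were fitted together with edgeR 4.0.16 in R 4.3.3, with a term per strain, TMM factors (0.899 to 1.095), filterByExpr with a minimum count of 10 and 5 residual degrees of freedom. Benjamini-Hochberg adjustment ran over 12267 genes, with a threshold of 0.05. Scripts were tested on simulated data. DESeq2 1.42.0, other scalings, filters and fits, and leaving out each library were alternatives. The members, lists, tests and alternatives were chosen with earlier results of these data known. Named were all members, up to 3 called genes of each other list or else its 2 of highest mean CPM, and the 8 genes of most similar profile. R9Q had 1 count each of perm-2 and perm-4, so count ratios with intervals are given in place of their fitted fold changes, except for perm-4 values under alternatives.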

Additional observations from a re-analysis of the deposited data

How the results depend on the processing

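The count of members called was 0 in all 10 comparisons. It stayed at 0 under other scalings, the stricter filter, DESeq2 and a term for the libraries of low mitochondrial share. Over the 10 comparisons DESeq2 called 1.58 to 13.5% of all genes, and that term 1.03 to 20.5%. The main fit called 0 to 4.46%, the other scalings 0 to 4.75% and the stricter filter 0 to 7.79%. In G265R against R9Q these last fits called no gene at all, so 0 members was fixed there. Leaving out a library leaves 1 in its strain, so calls under that setting are not counted here. Fits of only the 4 libraries of a comparison called 37.7% of genes in R9Q against WT. They called 7.29% in T102I against R9Q, 4.07% in T102I against WT and no gene at all elsewhere. The count of members was there 1 in R9Q against WT and 0 in the other 9, fixed in advance where no gene was called. Without the count filter it was 3 in G265R against R9Q, 2 in T102I against G265R, and 1 each in unc-16 against R9Q, G265R against WT, unc-16 against T102I and unc-16 against G265R, where 1.33 to 5.03% of all genes were called. Without the 3 libraries of low mitochondrial share, where the lone libraries of the suppressed strains are assumed to vary like WT and R9Q, it was 2 in R9Q against WT, 1 in T102I against R9Q, 6 in unc-16 against R9Q, 1 in T102I against WT, 2 in G265R against WT, 5 in unc-16 against WT, 1 in T102I against G265R, and 5 in unc-16 against each of T102I and G265R; 26.9 to 54.2% of all genes were called in those comparisons. That fit also turned the sign of 5 members in G265R against R9Q (log2 -0.33 for cbd-1, -0.88 for egg-1, -0.56 for cpg-1, -0.64 for cpg-2 and -0.51 for oma-1) and, in T102I against R9Q, of egg-1 (-0.48; -0.18 with a term for those libraries) and perm-4 (-2.24). The perm-4 values here rest on 2 counts in T102I and 1 in R9Q, which fix neither a size nor a sign. Library size alone turned cpg-1 to -0.19 in G265R and -0.007 in unc-16 against R9Q. Leaving out 1 library at a time gave ranges across 0 in R9Q against WT for cpg-1 (-0.10 to 0.17) and oma-1 (-0.26 to 0.65), and in T102I against R9Q for egg-1 (-0.49 to 0.65) and perm-4 (-2.22 to 3.18). In G265R against R9Q they were -0.32 to 1.19 for cbd-1, -0.87 to 1.25 for egg-1, -0.54 to 0.53 for cpg-1, -0.63 to 3.93 for cpg-2 and -0.50 to 0.87 for oma-1, and in unc-16 against R9Q -0.35 to 1.02 for cbd-1 and -0.70 to 0.67 for cpg-1. The cause was not tested. The replicate numbers did not pair the samples: deviations correlated at -0.636 between T102I and G265R, -0.455 between T102I and unc-16, and 0.605 between G265R and unc-16. A replicate block left 0 members called in all 10 comparisons, where 0 to 1.78% of all genes were called. A crossed block with the T102I numbers exchanged, added after seeing the data, did so too (0 to 4.77% of all genes). Where a gene was detected it had 1 to 222 counts in a library, and depth limits what can be said of the perm genes in R9Q, with 1 count each.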

Other observations

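In the list of germ granule genes, meg-1 and meg-2, which encode P granule proteins of the early embryo, were called higher in unc-16 than in WT by edgeR (adjusted p = 0.0462 for meg-1 and 0.0420 for meg-2), where 4.46% of all tested genes were called. They were chosen after their values were seen. Both passed the count filter through the unc-16 libraries, so their calls are a description. Outside unc-16 no library had more than 7 counts of meg-1 or 15 of meg-2. Over 19 alternatives the adjusted p ran from 1.17e-06 to 0.280 for meg-1, with 9 under 0.05, and from 2.78e-10 to 0.314 for meg-2, with 10 under 0.05. Without WT replicate 1 or 2, edgeR called 7 or 9 genes in that comparison in place of 547, and neither of these among them (adjusted p = 0.280 and 0.211 for meg-1, 0.231 and 0.314 for meg-2). The CPM of meg-1 was 6.91 and 4.42 in the unc-16 libraries, from 45 and 33 counts, against 0 and 2 counts in WT. The CPM of meg-2 in unc-16 was 15.2 and 6.83.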
